A study of Mus musculus with 10 samples.

Results

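The brush border genes described here are 10 structural genes of the intestinal microvillus: Vil1, Espn, Pls1, Eps8, Ezr, Myo1a, Cdhr2, Cdhr5, Ush1c and Myo7b. They were taken by symbol, through the RefSeq accession that each array probe carries. Of the 10 genes, 7 had a probe (9 probes in all), and these 7 were among the 14478 genes tested in the series. Cdhr2, Myo1a and Pls1 had no probe matched by this rule and were not analysed here.

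Microvilli are finger-like extensions of the apical membrane of an absorptive epithelial cell, and the packed array of them is the brush border. Each holds a core of parallel actin filaments that is cross-linked by bundling proteins, tied to the membrane by linkers and myosins, and rooted in the terminal web below. At the tips, a pair of protocadherins joins neighbouring microvilli, and a scaffold and a motor inside the cell hold that link in place. In the colon the brush border is a feature of differentiated surface colonocytes and is short or sparse on crypt base cells.

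The series measured total RNA of 3 CYP1A-humanized mice, in which human CYP1A genes replace those of the mouse, on 10 arrays of 1 colour. All 3 animals ate AIN93M diet, were given 2 doses of PhIP (100 mg/kg) at 6 weeks of age and 1.5% DSS in the drinking water for the following week, and were sampled at 16 weeks, after 8 weeks without treatment. PhIP is a heterocyclic amine of cooked meat and DSS (dextran sulfate sodium) injures the colon epithelium. The 7 tumors are labelled tubular adenoma with a dominant active Ctnnb1 mutant, and the 3 normals are adjacent colon epithelium, wild type for Ctnnb1, dissected from the same treated animals. No untreated animal is among the samples analysed here. Mouse 41 (labelled male) and mouse 42 (labelled female) each gave 1 normal and 3 tumors, and mouse 43 (labelled male) gave 1 normal and 1 tumor. A tumor is named here by its mouse and its number, so that tumor 41-3 is the third tumor of mouse 41. The 7 tumors share 3 animals, so p-values over tumors are not p-values over independent animals.

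The share of gene probes above background was 57.7% to 66.7% per array, and the precision of every value is limited by how few arrays there are. The arrays of mouse 42 went against their sex label. The Y-linked Ddx3y was at 8.95 to 9.25 on the log2 scale in mouse 42 and at 8.69 to 9.23 in the animals labelled male. Eif2s3y was at 9.89 to 10.31 in mouse 42 and at 9.91 to 10.34 in the others. Sex was therefore not used in any comparison, and the members are also given without mouse 42. Markers of squamous epithelium were high on 2 arrays, the normal of mouse 42 (mean log2 level 10.02) and tumor 43-1 (10.08), against 6.72 to 7.41 on the other 8. The arrays of tumors 41-2, 42-1, 42-2 and 43-1 were redipped or rescanned and read in a later scan session that held no normal.

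The 300-base windows around the annotated starts of Ush1c, Cdhr5 and Vil1 are shown because Ush1c and Cdhr5 had the larger falls of the adhesion complex and Vil1 is the classic bundler of the actin core. The sequences are from RefSeq (GRCm38.p6) and run 5′ to 3′ on the gene's strand, from 250 bases before the start. Capitals mark a match, on either strand, to the HNF4 core CAAAG, the CDX core TTTAT or the CArG box bound by SRF. These factors are known to act on intestinal genes and are described with the wider lists below.
Ush1c, chr7:46238441-46238740, minus strand: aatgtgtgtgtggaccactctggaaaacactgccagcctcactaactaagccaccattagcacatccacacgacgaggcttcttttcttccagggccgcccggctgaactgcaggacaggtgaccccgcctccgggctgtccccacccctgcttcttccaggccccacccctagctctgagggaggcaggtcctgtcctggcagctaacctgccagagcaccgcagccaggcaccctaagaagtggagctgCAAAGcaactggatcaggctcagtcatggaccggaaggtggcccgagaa
Cdhr5, chr7:141276737-141277036, minus strand: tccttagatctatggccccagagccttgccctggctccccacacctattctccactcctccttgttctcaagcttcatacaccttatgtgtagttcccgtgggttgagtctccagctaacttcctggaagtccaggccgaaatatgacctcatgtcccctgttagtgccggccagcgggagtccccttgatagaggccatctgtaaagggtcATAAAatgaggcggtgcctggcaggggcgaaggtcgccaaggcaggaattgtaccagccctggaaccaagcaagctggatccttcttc
Vil1, chr1:74409134-74409433, plus strand: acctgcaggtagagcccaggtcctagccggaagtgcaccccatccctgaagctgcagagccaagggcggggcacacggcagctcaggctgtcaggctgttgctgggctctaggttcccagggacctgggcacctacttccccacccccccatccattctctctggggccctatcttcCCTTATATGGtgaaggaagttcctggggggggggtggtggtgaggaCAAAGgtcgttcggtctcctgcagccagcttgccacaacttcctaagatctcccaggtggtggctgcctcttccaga
With the start counted as 0, the Ush1c window holds CAAAG from base 1. The Cdhr5 window holds the CDX core as its reverse complement from base -38. In the Vil1 window a CArG box begins at base -73 and CAAAG at base -27. Over the 10 windows found for 8 of the 10 genes, CAAAG was in 5, TTTAT in 2 and the CArG box in 1. Among all 32851 RefSeq windows of the same length the shares were 53.9%, 40.0% and 1.6%. A match of letters is a description of the window and not of binding.

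Transcripts of 6 of the 7 measured brush border genes were lower in tumors than in the normals, by 1.48-fold to 2.50-fold, and none was higher. Ush1c, Cdhr5, Espn, Vil1, Myo7b and Ezr passed limma's test at a Benjamini-Hochberg adjusted p under 0.05 over all 14478 genes, and Eps8 did not. Over all genes 23.8% were called lower by the same test and 25.9% higher. The median log2 difference of the 7 members was -0.84, against 0.0081 over all genes. For 5 members (Ush1c, Cdhr5, Espn, Myo7b and Ezr) every tumor lay below every normal, a pattern found in 20.1% of all genes. In bulk samples, fewer cells of a type and less RNA per cell cannot be told apart. When the tumors of a mouse were averaged and each animal counted once, these 6 members passed as well, with adjusted p from 0.00349 (Ush1c) to 0.0206 (Vil1). With the spot median, in the authors' deposited table and within the earlier scan session, only 3 members passed (Ush1c, Cdhr5 and Espn). Genes called over the whole array went from 7190 to 2656, 2815 and 3221 in these settings.

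**Figure D1:**
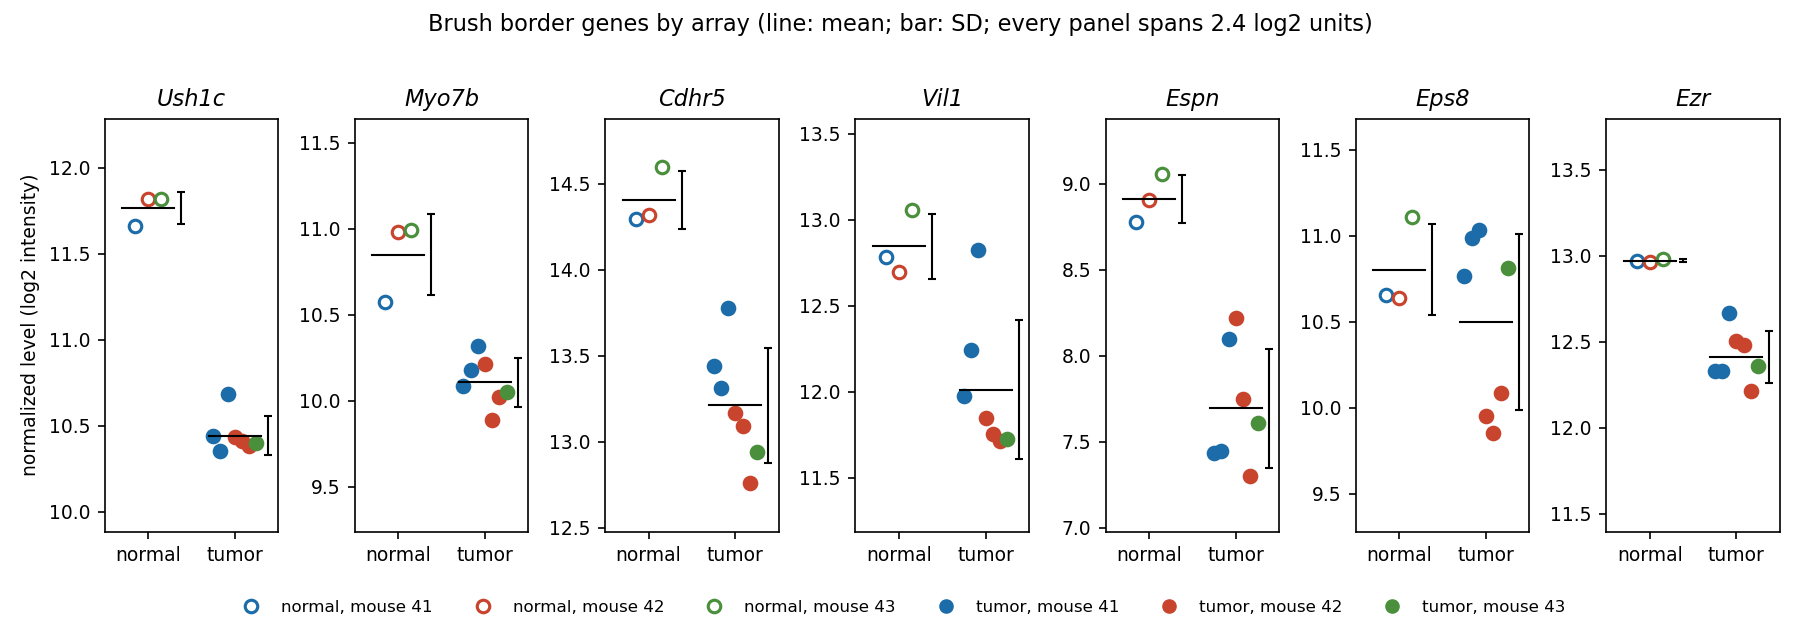
Normalized log2 intensity (y axis) of the 7 measured brush border genes in the 3 normals (open circles) and 7 tumors (filled circles), coloured by mouse, with the mean as a line and the SD as a bar. Every tumor lies below every normal for Ush1c, Myo7b, Cdhr5, Espn and Ezr, whereas for Vil1 tumor 41-3 (12.82) lies among the normals and for Eps8 the groups overlap.

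The intermicrovillar adhesion complex had 3 measured members. Ush1c encodes harmonin, the scaffold that gathers the complex at the tips of microvilli. Its log2 level was 11.66, 11.82 and 11.82 in the normals of mice 41, 42 and 43. In tumors it was 10.44, 10.35 and 10.69 in mouse 41, 10.43, 10.41 and 10.38 in mouse 42, and 10.40 in mouse 43. The 7 tumors lay within 0.34 of each other and their differences from the normal of the same mouse were -1.44 to -0.97. The fitted difference was -1.32 ± 0.09 (SE), a 2.50-fold fall to 40.0% of the normal level (limma adjusted p = 2.4e-05). A second Ush1c probe, for another transcript, was above background on 2 of 10 arrays and lay between 5.98 and 6.39, so it was not tested.

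Cdhr5 encodes one of the protocadherins that bridge neighbouring microvilli, and its partner Cdhr2 was not measured by these probes. Its log2 level was 14.30, 14.32 and 14.60 in the normals. In tumors it was 13.44, 13.31 and 13.78 in mouse 41, 13.16, 13.09 and 12.76 in mouse 42, and 12.94 in mouse 43. All tumors were below all normals, with tumor 41-3 the closest to its own normal (difference -0.52) and tumor 43-1 the farthest (-1.66). The difference was -1.20 ± 0.17, a 2.30-fold fall (limma adjusted p = 0.000423).

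Myo7b encodes the unconventional myosin that carries and anchors the complex. It stood at 10.58, 10.98 and 10.99 in the normals. In tumors it was 10.09, 10.18 and 10.32 in mouse 41, 10.21, 9.89 and 10.02 in mouse 42, and 10.05 in mouse 43. The groups did not overlap, although tumor 41-3 differed from its own normal by no more than -0.26. The difference was -0.73 ± 0.13, a 1.66-fold fall (limma adjusted p = 0.00134). Myo7b missed the threshold with the spot median (-0.37, adjusted p = 0.453) in the authors' deposited table (-0.42, adjusted p = 0.470) and within the earlier scan session (-0.62, adjusted p = 0.0698), and its spot mean was a median of 4.91 times its spot median over the arrays.

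The actin core was represented by Vil1, Espn and Eps8. Vil1 encodes villin, which bundles actin filaments and severs them when calcium is high. Its level was 12.78, 12.70 and 13.06 in the normals. In tumors it was 11.98, 12.24 and 12.82 in mouse 41, 11.85, 11.75 and 11.72 in mouse 42, and 11.72 in mouse 43. Tumor 41-3 was 0.04 above its own normal and overlapped the normals, while the other 6 tumors differed from theirs by -1.33 to -0.54. The difference was -0.84 ± 0.20, a 1.79-fold fall (limma adjusted p = 0.00614). The call was lost without mouse 42 (-0.79, adjusted p = 0.102), within the earlier scan session (-0.64, adjusted p = 0.190), with the spot median (-0.96, adjusted p = 0.164) and in the authors' deposited table (-1.14, adjusted p = 0.0665).

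Espn encodes espin, a small bundler that is not inhibited by calcium. Its probe gave background-subtracted spot values of 113 to 429, against background limits of 11 to 24.2 on these arrays. The normals were at 8.78, 8.91 and 9.06. Tumors were at 7.44, 7.45 and 8.10 in mouse 41, 8.22, 7.75 and 7.30 in mouse 42, and 7.61 in mouse 43. No tumor reached the normals, but the tumors spread over 0.92 log2 units, with differences from the own normal of -0.68 in tumor 41-3, -0.69 in tumor 42-1 and -1.60 in tumor 42-3. The difference was -1.21 ± 0.21, a 2.32-fold fall (limma adjusted p = 0.00133).

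Eps8 encodes a protein of microvillus tips that caps the growing ends of actin filaments and also bundles them. It was the measured member that did not pass. Its level was 10.66, 10.64 and 11.11 in the normals. In tumors it was 10.76, 10.98 and 11.03 in mouse 41, 9.95, 9.85 and 10.09 in mouse 42, and 10.81 in mouse 43. The 3 tumors of mouse 41 were above their own normal by 0.11, 0.33 and 0.37, whereas the 3 tumors of mouse 42 were below theirs, with differences of -0.69, -0.79 and -0.55. Tumor 43-1 had a difference of -0.30. Over all arrays the difference was -0.23 ± 0.16 (limma adjusted p = 0.270). It was 0.04 without mouse 42 (adjusted p = 0.863) and -0.52 without mouse 41 (adjusted p = 0.0211), so its size and its call changed with the animal left out.

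Ezr encodes ezrin, which links the actin core to the apical membrane and its receptors. The normals were close together at 12.97, 12.96 and 12.98. Tumors were at 12.33, 12.33 and 12.67 in mouse 41, 12.51, 12.48 and 12.21 in mouse 42, and 12.36 in mouse 43. All 7 were below all 3 normals, with differences from the normal of the same mouse of -0.30 (tumor 41-3) to -0.75 (tumor 42-3). The fall of 1.48-fold was the smallest of those that passed (log2 difference -0.56 ± 0.10, limma adjusted p = 0.00186). A second Ezr probe gave -0.75 ± 0.09 (adjusted p = 0.000183 over all probes), also with every tumor below every normal. The first probe missed the threshold with the spot median (-0.27, adjusted p = 0.487), in the authors' deposited table (-0.44, adjusted p = 0.287) or, with a difference of similar size, within the earlier scan session (-0.59, adjusted p = 0.0572).

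**Figure D2:**
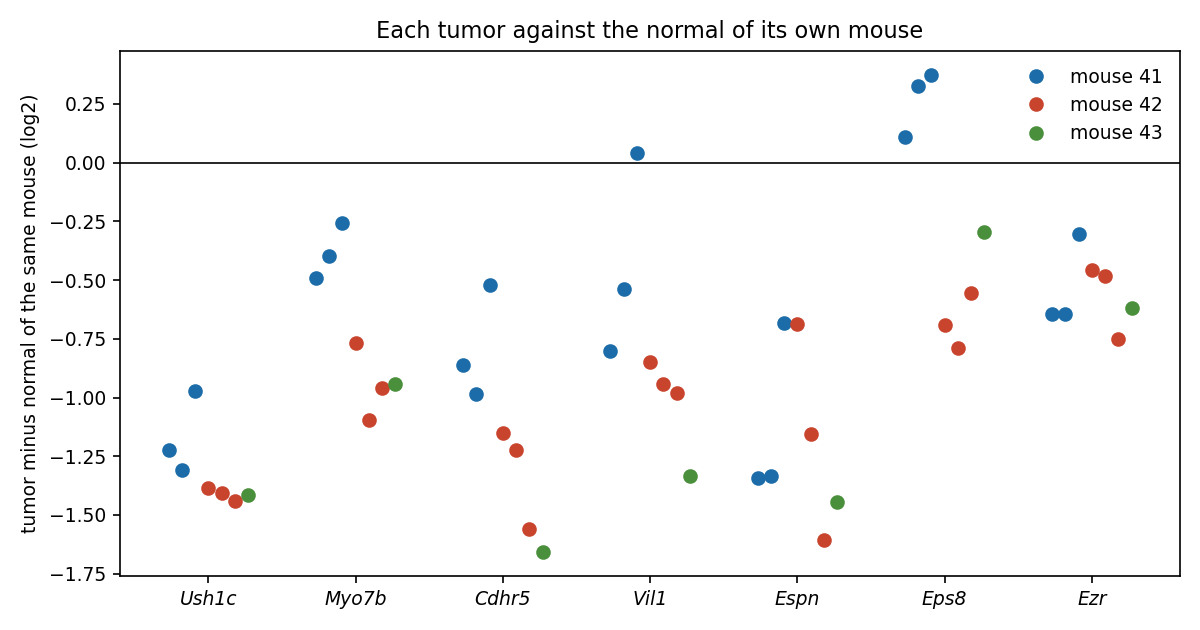
Difference of each of the 7 tumors from the normal of the same mouse (y axis, log2), for the 7 measured genes, coloured by mouse; points at 0 or above are tumors at or above their own normal. The tumors of mouse 41 lie above 0 for Eps8 and those of mouse 42 below it, and tumor 41-3 is at 0.04 for Vil1.

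Tumors differed among themselves, and their full order was not the same from member to member. Tumor 41-3 had the highest level of the 7 tumors for Ush1c, Cdhr5, Myo7b, Vil1, Ezr and Eps8, and for Espn the highest was tumor 42-1. Tumor 42-3 was the lowest for Vil1, Cdhr5, Ezr and Espn. The mean of the members' standardized levels was 0.94 to 1.47 in the normals, 0.35 in tumor 41-3 and -1.04 to -0.36 in the other 6 tumors. Tumor 41-3 also had the highest absorptive colonocyte level among tumors, at 11.18 (mean log2 level of 8 measured markers), against 8.19 to 9.37 in the other tumors and 12.65 to 12.95 in the normals. The part of this difference in the members' levels was not tested.

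The tumors of mice 41 and 42 were compared as 1 animal against 1 animal. The SE and p of this comparison measure the spread among tumors within a mouse, not the spread among animals. Tumor 41-2 of mouse 41 and tumors 42-1 and 42-2 of mouse 42 were read in the later scan session. Between these animals, with 3 tumors each, Eps8 was the member called. Its mean was 10.93 ± 0.14 (SD, n = 3) in the tumors of mouse 41 and 9.96 ± 0.12 (SD, n = 3) in those of mouse 42, a 1.95-fold lower level in mouse 42 (log2 difference -0.96 ± 0.11, SE, limma adjusted p = 0.0295). In this comparison 0.221% of all genes were called, 32 of 14478. The call held in 3 of 9 alternatives, with log2 differences of -1.05 to -0.58 and adjusted p of 0.0154 to 0.571, and it was lost when any 1 of tumors 41-2, 41-3, 42-1, 42-2 or 42-3 was left out. Among those 3, the fit of only the 6 tumors of mice 41 and 42 repeats the reported fit by construction and is no check on it. The tumor minus normal difference itself was lower in mouse 42 than in mouse 41, by -0.95 ± 0.22 (limma, unadjusted p = 0.00289), which did not pass over all genes (adjusted p = 0.308). Each mouse had 1 normal array, so no spread among normals of a mouse enters that test. The normal of mouse 42 was an array with high squamous markers (mean log2 level 10.02). For Vil1 and Cdhr5 the tumors of mouse 42 differed from those of mouse 41 by -0.58 and -0.50 (limma adjusted p = 0.217 and 0.190). Of the other 4 members, Ush1c, Myo7b, Ezr and Espn differed by -0.15 to 0.10, with adjusted p from 0.534 to 0.905.

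The 7 wider lists place the members among their partners, and of their 96 genes 81 were tested, 36 lower and 18 higher in tumors. Over all genes 23.8% were called lower and 25.9% higher, and the count of each list below stands beside these shares. Further proteins of intermicrovillar adhesion moved in both directions. Of 6 tested genes, 3 fell and 2 rose, with a median log2 difference of -0.77. Anks4b, a scaffold that binds harmonin and the myosin tail, fell 2.78-fold (-1.47 ± 0.21, limma adjusted p = 0.00052). Calml4, a light chain of the Myo7b motor, fell 1.97-fold (-0.98 ± 0.20, adjusted p = 0.00288). For both genes all 7 tumors lay below all 3 normals, a pattern found in 20.1% of all genes. Cdhr1, a cadherin known from photoreceptors, fell too (adjusted p = 3.9e-05). It was above background in 2 of 7 tumors, and the size of its log2 difference moved from -2.84 to -0.92 over the alternatives, so no fold is given. A pair of genes best known from hair cells of the inner ear rose. Cib2, a calcium-binding protein, went from 8.72 ± 0.31 (SD, n = 3) to 11.1 ± 0.45 (SD, n = 7), a 5.07-fold rise (limma adjusted p = 2.4e-05), and the myosin Myo7a rose 1.46-fold. Ush1g, a further scaffold, did not pass (-0.55, adjusted p = 0.239). The call of Myo7a was lost with the spot median (0.27), the authors' deposited table (0.70) and the earlier scan session alone (0.40), as was that of Calml4 in the earlier session (-0.98, adjusted p = 0.0717).

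Other actin bundlers, cappers and nucleators divided about evenly, with 9 of 23 lower, 7 higher and a median of -0.09. Scin, which encodes the severing protein scinderin of the villin and gelsolin family, fell the most, 7.01-fold (-2.81 ± 0.17, limma adjusted p = 1.6e-05). Baiap2l1 and Baiap2l2, membrane-bending proteins known from microvilli, fell 2.44-fold and 2.01-fold. The Eps8 relatives Eps8l3 and Eps8l2 fell 2.44-fold and 1.60-fold, whereas Eps8l1 did not pass (0.15, adjusted p = 0.221). Among genes that rose were the villin relatives Avil (4.04-fold, adjusted p = 0.000232) and Vill (2.07-fold), and the plastins Pls3 (3.76-fold) and Lcp1 (2.03-fold), which bundle actin in cells without a brush border and in leukocytes. Pls3 and Lcp1 are paralogs of the member Pls1. Fscn1, the bundler of filopodia, rose 1.84-fold. Cobl, an actin nucleator of microvilli, was at -0.09 ± 0.12 (adjusted p = 0.571). Pls3 and Vill lost their calls under the spot median (0.90 and 0.27) and in the authors' deposited table (1.04 and 0.53), and the list's rises came to 2 and 3 there. So did Lcp1 under the spot median (0.69), and Fscn1 where the scan session entered the fit as a block (0.61) or its earlier arrays were used alone (0.57). Avil was at 1.13 with the spot median. Avil also marks tuft cells and is itself among the 6 tested tuft markers. Of these 6, 3 fell and 2 rose, with a median log2 difference of -0.26. Over all genes the shares were 23.8% lower and 25.9% higher. The mean level of the tuft markers, Avil included, was 7.66 to 7.76 in the normals and 7.54 to 7.74 in the tumors.

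Linkers showed a contrast within the family of ezrin. While Ezr fell, its paralogs Msn (moesin) and Rdx (radixin) were higher in tumors, Msn 2.42-fold (1.28 ± 0.12, limma adjusted p = 7.2e-05) and Rdx 1.74-fold (0.80 ± 0.20, adjusted p = 0.0103). Msn is abundant in leukocytes, fibroblasts and endothelium. Markers of leukocytes had mean log2 levels of 8.56 to 8.96 in the normals and 9.87 to 10.33 in the tumors. Those of fibroblasts were at 9.97 to 10.33 and 10.92 to 12.27, and those of endothelium at 7.21 to 7.70 and 7.97 to 8.58. These means were higher in every tumor than in any normal. Among single genes, 3098 of 14478 had every tumor above every normal. The part of these cell types in the rises of Msn and Rdx was not tested. Of 12 tested linkers, scaffolds and kinases 6 fell and 4 rose, with a median of -0.25. Slc9a3r1, the scaffold that binds ezrin at the apical membrane, fell 2.07-fold (-1.05 ± 0.17, adjusted p = 0.001). Stk10, a kinase that phosphorylates ezrin, fell 1.76-fold, and Pdzk1ip1, a membrane partner of the scaffold Pdzk1, fell 2.85-fold. Podxl, a sialomucin that binds ezrin, rose 2.20-fold. Pdzk1 was above background in 0 of 3 normals and 5 of 7 tumors. It thus met the filter through the tumors alone. Its mean was 6.14 in normals and 6.44 in tumors (limma adjusted p = 0.0164), 1.16-fold over the background bound. The tumor mean includes tumors not above background, and median scaling gave 0.18, so that bound is no floor. Among probes above background on all 10 arrays, the list's rises came to 3. As Pdzk1 was kept through the tumors, its call is no independent support. That call held in 14 of 25 alternatives and was lost, for example, with no block for the mouse (adjusted p = 0.0576), with the tumors of a mouse averaged (0.0737), with median scaling (0.201) and without mouse 42 (0.146). Slc9a3r1 and Stk10 lost their calls under the spot median and in the authors' deposited table, where the list's falls came to 0 and 1, and Slc9a3r1 also in the earlier scan session alone (-1.09, adjusted p = 0.0556). Rdx lost its call without mouse 42 or its normal (0.78), with the session as a block (0.62) and in the earlier session (0.54), and Pdzk1ip1 without mouse 42 (-1.22, adjusted p = 0.0616) and under the spot median (-1.11, adjusted p = 0.071).

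**Figure D3:**
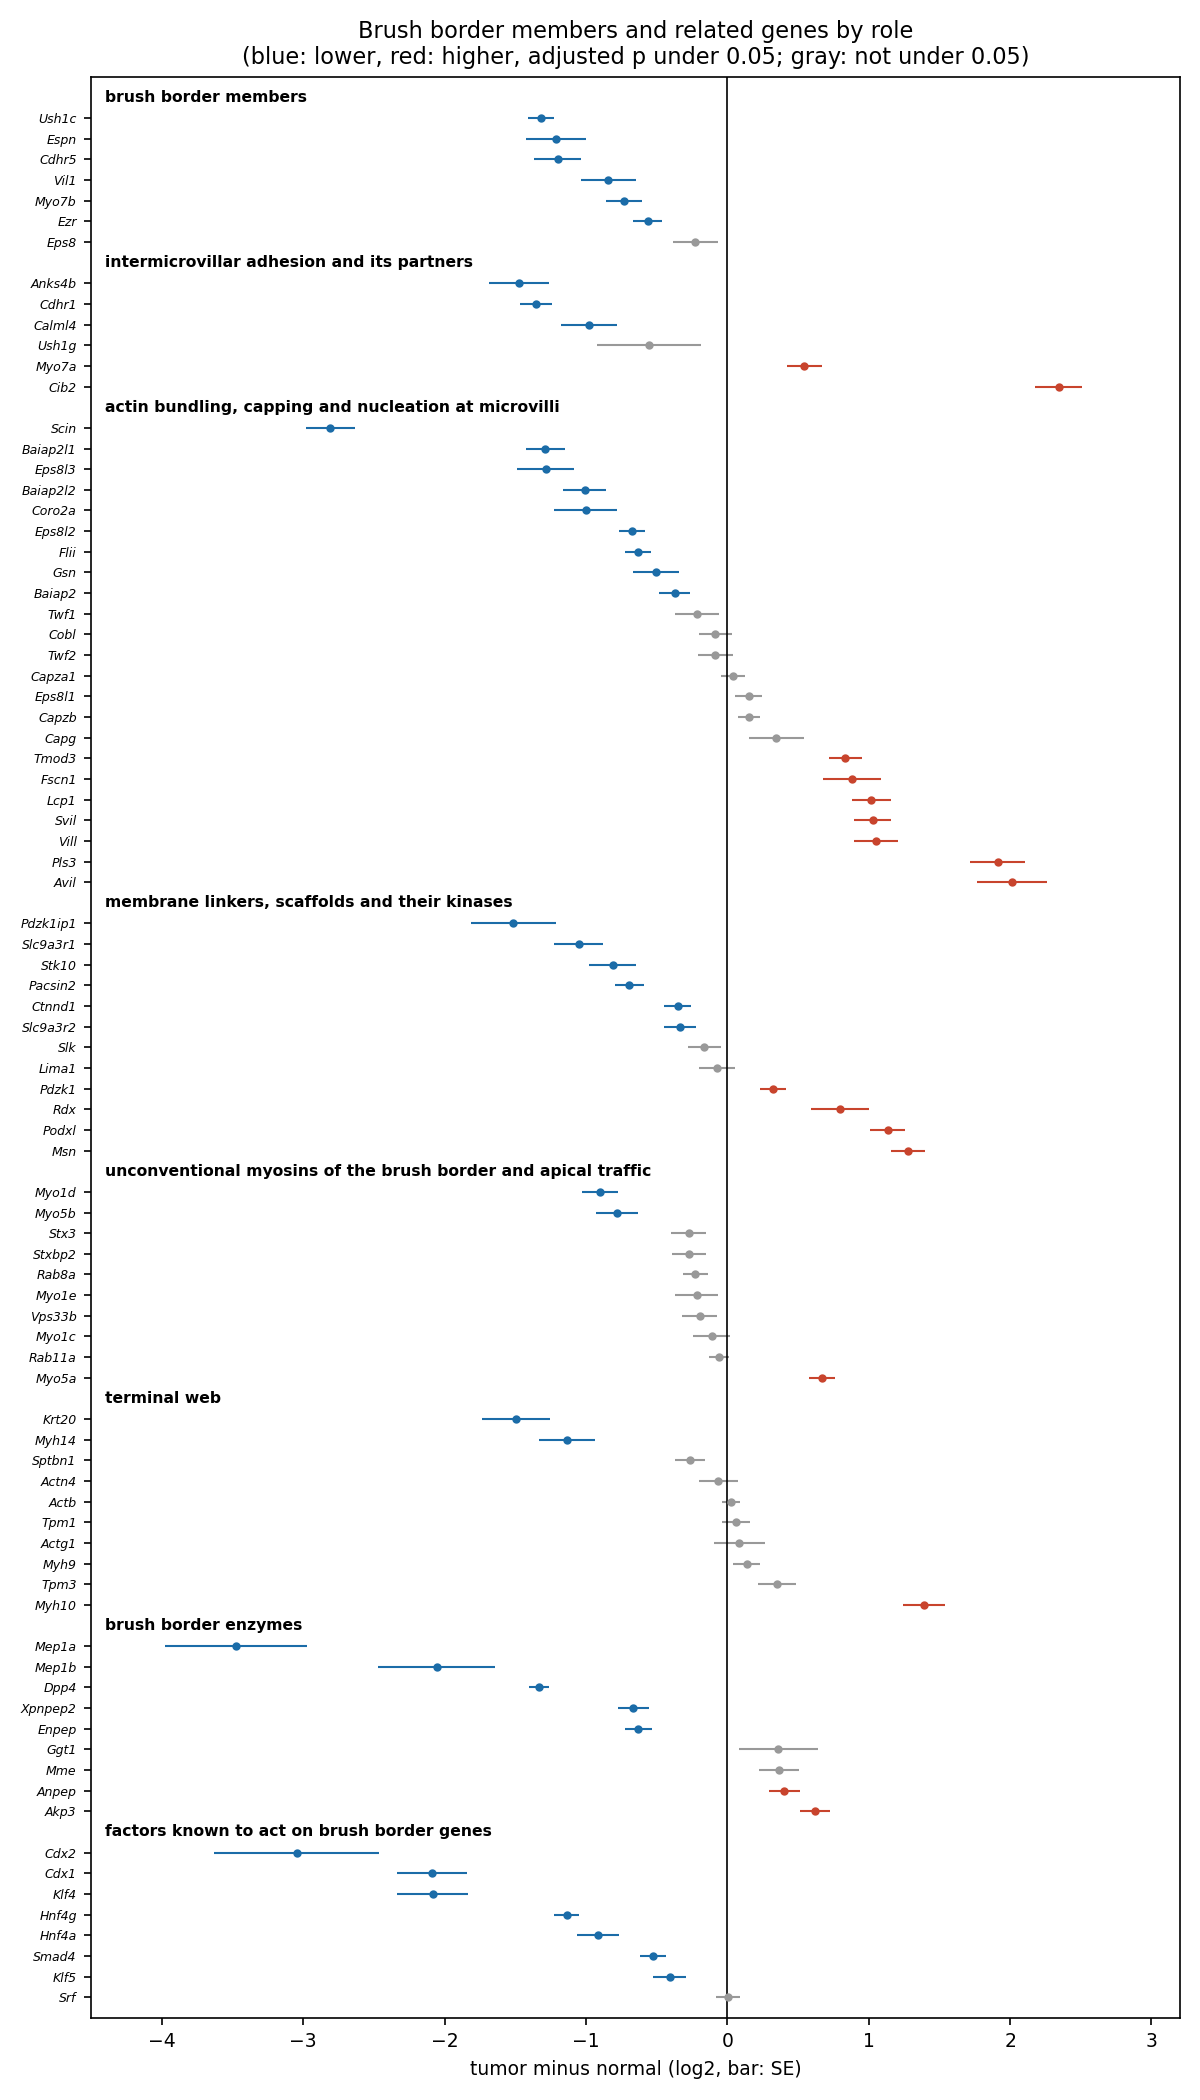
Tumor minus normal log2 difference (x axis, bar: SE) of the members and of tested genes of the wider lists, grouped by role, with blue for genes that fell, red for genes that rose (limma adjusted p under 0.05) and gray for the rest. Falls and rises are mixed among bundlers and linkers, whereas every factor shown but Srf fell; the fitted points of Pdzk1, Akp3 and Mme, not above background in any normal, are no bounds.

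Of 11 tested motors and traffic genes 2 were lower and 2 higher, which does not exceed the shares over all genes (23.8% lower, 25.9% higher). Myo1d, a membrane-linking myosin related to the unmeasured Myo1a, fell 1.87-fold (-0.90 ± 0.13, limma adjusted p = 0.000457), and Myo5b, which carries apical vesicles, fell 1.72-fold (-0.78 ± 0.15, adjusted p = 0.00232). Myo5a rose 1.59-fold. The traffic genes Rab11a, Rab8a, Stx3, Stxbp2 and Vps33b had differences of -0.27 to -0.06, with adjusted p of 0.0554 to 0.493. The call of Myo5b was lost under the spot median, the authors' deposited table, the earlier scan session alone and without mouse 42. Over the alternatives Myo1d ran from -1.63 to -0.83 and Myo5a from 0.37 to 1.52, all past the threshold. In the terminal web, 2 of 10 tested genes fell and 1 rose. Krt20, a keratin of differentiated surface cells, fell 2.82-fold and the nonmuscle myosin Myh14 2.19-fold (-1.13 ± 0.20, adjusted p = 0.00133), while its paralog Myh10 rose 2.62-fold (0.79 to 2.09 over the alternatives). Krt20 was not called within the earlier scan session (-1.17, adjusted p = 0.0852). Actb, cytoplasmic actin, was at 0.03 ± 0.06 (adjusted p = 0.765), at -0.04 with median scaling and at -0.18 in the authors' deposited table.

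Enzymes anchored in the brush border membrane fell in 6 of 10 tested cases and rose in 2, with a median of -0.65. Mep1a and Mep1b, the meprin subunits, fell 11.1-fold (-3.48 ± 0.50, limma adjusted p = 0.000523) and 4.16-fold (-2.06 ± 0.41, adjusted p = 0.00292). The dipeptidyl peptidase Dpp4 fell 2.52-fold (-1.33 ± 0.07, adjusted p = 1e-05). Akp3, an alkaline phosphatase, was above background in 0 of 3 normals and 7 of 7 tumors. It thus met the filter through the tumors alone. Akp3 was at least 1.38-fold higher in tumors (limma adjusted p = 0.00122, normals 6.05, tumors 6.70), and its call is no independent support. Among probes above background on all 10 arrays, the list's falls came to 4 and its rises to 0. Anpep rose 1.32-fold, with 1 of 3 normals above background, and kept its call in 16 of 26 alternatives. It lost it, among others, with the tumors of a mouse averaged (adjusted p = 0.0528), with median scaling (0.0585), with the scan session as a block (0.108), under the spot median (0.102) and in the authors' deposited table (0.0782). Within the earlier scan session Mep1a (-2.78, adjusted p = 0.0587) and Mep1b (-1.66, adjusted p = 0.0849) did not pass, and Mep1b did not with the spot median (-1.18, adjusted p = 0.119). Under the spot median Mep1a stood at -1.81 and Dpp4 at -0.79, both past the threshold, and Mep1a stood at -2.54 in the authors' deposited table.

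Of 9 tested transcription factors known to act on brush border genes, 8 fell and none rose, with a median of -0.91. The caudal homeobox factors Cdx2 and Cdx1, which set intestinal identity, fell 8.27-fold (-3.05 ± 0.58, limma adjusted p = 0.00229) and 4.26-fold. Klf4, a factor of differentiating surface cells, fell 4.24-fold. The nuclear receptors Hnf4g and Hnf4a fell 2.20-fold and 1.88-fold. Smad4 and Klf5 fell 1.44-fold and 1.33-fold. Smad4 lost its call under the spot median (adjusted p = 0.457) and in the authors' deposited table (0.410). Klf5 lost it in 7 of 27 alternatives, among them the spot median (0.338), the deposited table (0.170) and the fits without mouse 41 (0.113) and without mouse 42 (0.0656). Srf, which binds the CArG box, was at 0.0038 ± 0.086 (adjusted p = 0.975), with both signs among the alternatives (-0.043 to 0.59). Cdx2 was not called within the earlier scan session (-2.74, adjusted p = 0.115) or without mouse 42 (-2.74, adjusted p = 0.0612), Hnf4a did not with the spot median (-0.77, adjusted p = 0.0525) or within the earlier session (-0.70, adjusted p = 0.0744), and the list's falls came to 5 with the spot median, where Hnf4g stood at -0.44.

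Levels of cell type markers moved with tumor status in these arrays. The counts of markers called stand beside 23.8% of all genes called lower and 25.9% called higher. Of 10 epithelial markers 4 fell and 3 rose, and their mean level was 12.61 to 12.88 in the normals and 12.94 to 13.11 in the tumors. Absorptive colonocyte markers fell in 7 of 8 tested cases (median log2 difference -4.55). Markers of secretory cells were lower too, with goblet cells at 13.25 to 13.38 in the normals and 11.27 to 12.63 in the tumors, and enteroendocrine cells at 9.51 to 9.76 and 6.63 to 7.61. Smooth muscle markers were at 8.44 to 9.19 and 7.94 to 8.63. All 7 fibroblast markers rose. Il25 (tuft), Ivl and Sprr1b (squamous) were not above background on any array. The part of these cell types in the members' falls was not tested.

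**Figure D4:**
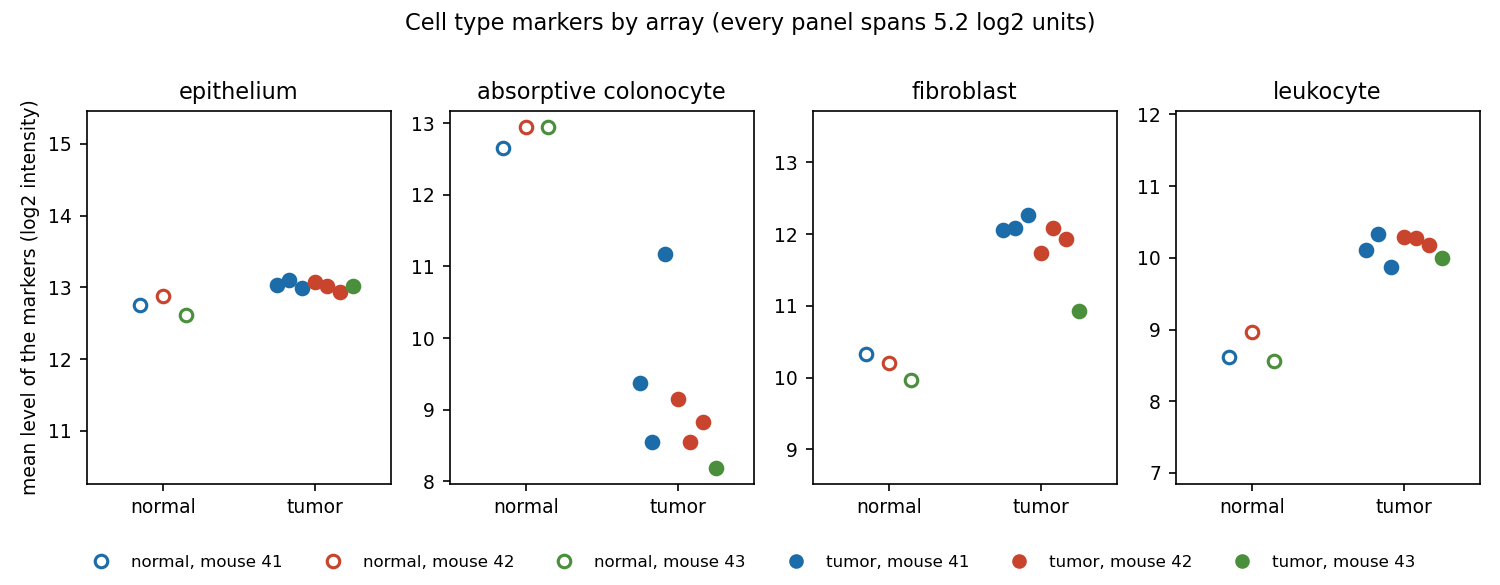
Mean log2 level of the tested markers of epithelium, absorptive colonocytes, fibroblasts and leukocytes (y axis, each panel with its own range) in the 3 normals and 7 tumors, coloured by mouse. Absorptive markers lie at 12.65 to 12.95 in normals and at 8.19 to 11.18 in tumors, with tumor 41-3 the highest tumor.

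Genes whose pattern over the 10 arrays was most like the mean of the members were Ugt1a1 (Pearson r = 0.993), Ano7 (0.993), Ugt1a6a (0.993), Dst (0.992), Slc35a1 (0.991) and Ugt1a7c (0.991), of 11586 genes compared. Of these genes, 1020 had r of at least 0.9. The arrays share 3 animals and the tumor and normal groups, so the correlation is a description and was given no test. The Ugt1a genes share exons, and their probes may read each other's transcripts. The log2 difference was -2.63 ± 0.33 for Ugt1a1 (limma adjusted p = 0.00023) and -1.31 ± 0.22 for Dst (adjusted p = 0.00103).

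**Figure D5:**
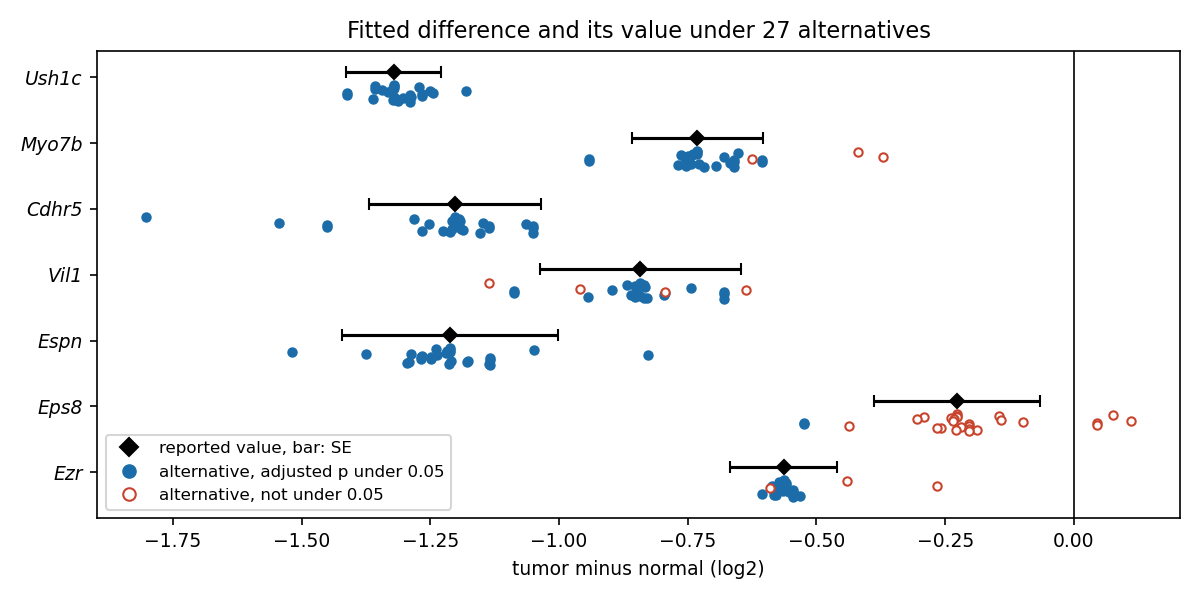
Reported tumor minus normal log2 difference of each measured member (black diamond, bar: SE) and its value under 27 alternatives (blue: limma adjusted p under 0.05, open red: not under it). Ush1c, Cdhr5 and Espn passed in 27 of 27, Ezr and Myo7b in 24, Vil1 in 23 and Eps8 in 2. The 27 are not independent, and some of them repeat the same difference.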

How the data were processed

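Total RNA of 7 colon tumors and 3 adjacent normals from 3 mice was labelled as biotin cRNA and hybridized to 1-colour arrays. Per the file headers, the intensity of 38880 spots per array was read at 635 nm with GenePix Pro 4.1.1.4. These deposited intensities are linear and not normalized. A further intensity table deposited by the authors holds 19327 probes, each the spot median minus local background times a factor per array (within 0.1% for 99.772% to 99.969% of the probes). Its column medians were 110 to 119, and it served as an alternative. The choice of its probes is not stated in the sources used here.

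Normexp (offset 50) took the mean of each spot and the median of its local background, over all spots, and the log2 intensities computed from the deposited values were quantile normalized over 34312 gene probes. Of these, 22987 matched 1 symbol through RefSeq accessions of the GRCm38.p6 table, 5232 kept their accession and 6093 had none. Probes that carried a bad flag (43) were not used. A probe was above background where it carried no negative flag and passed the 99th percentile of 432 null spots of its array. Probes that did so on 3 or more arrays were kept. Each gene was tested through its kept probe of highest mean (14478 genes, 11741 with a symbol). For a gene not above background in any array of a group a bound was given, with each array of the dim group set to the probe's signal or, where higher, to the lowest signal that passed on that array. The sources used here do not name the array's build, so coordinates come from RefSeq windows alone.

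Tumors and normals were compared by limma (lmFit, eBayes), with a fixed block for the mouse because the sample titles name the animal, and p-values were adjusted by Benjamini-Hochberg over all genes. Deviations of the normal and the mean tumor of a mouse from their group means correlated at 0.11, -0.067 and -0.078. These weak values do not show the pairing, and the block rests on the sample titles alone. Tumors of mice 42 and 41 were compared through means per mouse and tissue. The test of the difference between their tumor minus normal effects was added after seeing the data, and called 57 of 14478 genes. Alternatives covered background correction, offset, spot statistic, normalization, filter, probe choice, the deposited table, the block, the scan session, and arrays or mice left out.

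On simulated data with independent noise, the tumor minus normal fit of 14478 genes recovered 51% of genes shifted by 0.5 (log2) and 86% of those shifted by 1, with 3.52% false among its calls. The fit of mouse 42 against mouse 41 recovered 25% and 74%, with 1.98% false. These rates need not hold for the real arrays.

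The text names all members, the measured genes of 7 lists of partners and the 6 genes outside the lists whose levels correlate most with the members' mean standardized level. The members and lists were chosen with earlier results of these data known. The genes named from each list were picked with their values in view, and some genes of these lists count in the totals but are not reported here. The fits ran in limma 3.58.1 under R 4.3.3, and the figures were drawn with matplotlib 3.10.9.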

Additional observations from a re-analysis of the deposited data

Results flagged for a closer look

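Tumor 41-3 stood apart from the other 6 tumors for Ush1c, at 10.69 on the log2 scale, against 10.35 to 10.44. Its gap to the nearest tumor was 0.739 of the range of the 7 tumors, above the 95% critical value of Dixon's test. Chance alone would mark about 1 in 20 such groups, and 7 members were looked at.

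The tumor minus normal difference of Eps8 was lower in mouse 42 than in mouse 41 by -0.95 on the log2 scale. All 3 tumors of mouse 41 lay above their own normal (0.11 to 0.37) and all 3 tumors of mouse 42 below theirs (-0.79 to -0.55). Limma's test of this difference gave an unadjusted p of 0.00289 and an adjusted p of 0.308 over all genes. It sets 1 animal against 1 animal and does not measure the spread among animals. The only normal of mouse 42 was an array with high squamous markers (mean log2 level 10.02), and the part of this in the difference was not tested.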

How the results depend on the processing

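Over 27 alternatives, Ush1c (-1.41 to -1.18), Cdhr5 (-1.80 to -1.05) and Espn (-1.52 to -0.83) passed in every one, Ezr (-0.60 to -0.27) and Myo7b (-0.94 to -0.37) in 24 and Vil1 (-1.14 to -0.64) in 23, all with the same direction. These 27 are not independent. Leaving out the normal of mouse 43, its tumor or the whole mouse gave the same fit. The settings for filter and probe choice left the members' differences as reported. Leaving out the normal of mouse 41 or 42 gave the same difference as leaving out that mouse. Eps8 changed sign under the spot median (0.11), in the authors' deposited table (0.075), without the normal of mouse 42 (0.044) and without mouse 42 (0.044), and passed without the normal of mouse 41 and without mouse 41 (-0.52 each). The cause was not tested. The number of members called was 3 for the spot median, 3 for the deposited table and 3 within the earlier scan session, which holds fewer arrays. Genes called over the whole array, 7190 (3446 lower and 3744 higher), came to 2656 (1358 and 1298), 2815 (1365 and 1450) and 3221 (1585 and 1636) in these settings, and to 3995 (1943 and 2052) without mouse 42. With no replicate block for the mouse the same number of members passed (6). Without mouse 42, Ush1c was at -1.27 (limma adjusted p = 0.00486), Cdhr5 at -1.14 (0.0202) and Espn at -1.25 (0.0145). Myo7b was at -0.61 (0.0375) and Ezr at -0.56 (0.0315) there, and Vil1 and Eps8 did not pass. Between the tumors of mice 42 and 41 the 32 calls became 1 with the spot median, 138 with median scaling and 2 to 111 when 1 tumor was left out. Among genes of the wider lists, Actb changed sign with median scaling (-0.045) and in the deposited table (-0.18). Srf did so with no block (-0.017), a random block (-0.014), within the earlier session (-0.026), without mouse 43 (-0.043) and without the pair of squamous-high arrays (-0.043), and it ranged from -0.043 to 0.060 when 1 array was left out. No list gene past the threshold changed sign under these alternatives, and 130 of their values no longer passed. The 7 tested members were above background on all 10 arrays, and the second Ush1c probe on 2.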
